A study of Pinus pinaster with 24 samples.

Results

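The comparison described here sets the developing vessels of the maritime pine (Pinus pinaster) root tip against the root meristem, in seedlings that received water and no ammonium. It rests on 6 of the 24 libraries of the study, 3 of developing vessels and 3 of meristem, chosen by their labels and paired by the experiment numbers 1, 3 and 4. The study as a whole covers 4 tissues of the root tip under 2 treatments, with 3 libraries for each combination, and the 6 root cap and developing cortex libraries from watered seedlings are used here as a reference. All groups came from seedlings 1 month old that had been given a nutrient solution without a nitrogen source, then 80 mL of water, and were sampled 24 h later. Root tips of 5 to 6 mm were frozen and cut at 30 µm, the tissue areas were captured by laser microdissection, and amplified cDNA was sequenced as paired reads of 150 bases. The labels describe the captured areas as approximate, call the vessel area developing root vascular tissue, and give neither the number of seedlings behind a library nor whether each experiment used its own plants. The spread between libraries, against which each p-value is set, may therefore be partly technical.

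The root meristem is the zone of dividing cells behind the root cap from which the other root tissues are formed. Above it, cells of the central cylinder elongate and form the vascular system, with its procambium, phloem and xylem. In conifers the water-conducting xylem cells are tracheids, which lay down thick lignified secondary walls and then lose their cell contents by programmed death, so a captured area of developing vascular tissue holds several cell types at different stages.

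Each deposited value is a signal, the reads of a transcript divided by a scaled library size. They are not divided by transcript length, so levels are compared here between libraries, and an order of transcripts by value is not an order by molecules. The 6 libraries held between 67135340 and 73311830 reads, and 3 reads corresponded to a value between 0.0325 and 0.0418, a floor that covers counting error only. None of the 47118 transcript identifiers in the table carries a gene name. The identity of the captured tissues could therefore not be checked against marker genes, transcripts appear under their identifiers, and reads shared by near-identical transcripts could not be told apart.

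The meristem library of experiment 3 stood apart from the other meristem libraries in transcripts that were high in vessels. Among the 180 transcripts higher in vessels by a log2 difference of at least 4, the meristem value was 0.372% of the vessel value in experiment 1 (median), 0.315% in experiment 4 and 9.25% in experiment 3. In experiment 3 the quartiles of these transcripts were 7.52% and 12.6%, and for 173 of the 180 (96.1%) this library held the highest of the 3 meristem values. In 98 of the 180 its value was at least 10 times each of the other meristem values, which was the case for 1.15% of all 45391 transcripts tested. These transcripts were chosen by the same contrast, so the shares describe them and were not tested. Whether vascular cells entered that capture was not tested. The counts of all calls and those at a log2 difference of at least 2 are given with and without it. So are the named vessel transcripts in which this library stood furthest apart.

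**Figure D1:**
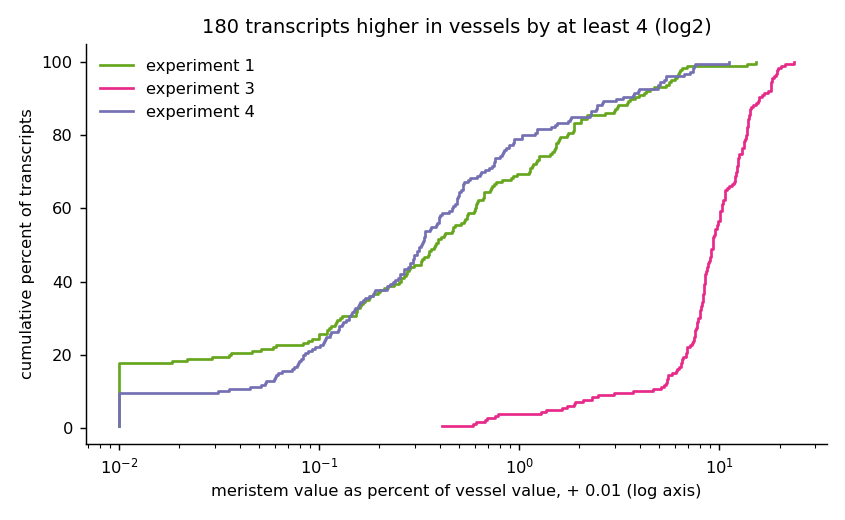
Cumulative percent of the 180 transcripts that were higher in vessels by at least 4 on the log2 scale, plotted against the meristem value as a percent of the vessel value in the same experiment (log axis, 0.01 added so that values of 0 can be drawn); each line is 1 experiment. The lines of experiments 1 and 4 have medians of 0.372% and 0.315%, and the line of experiment 3 lies to their right with a median of 9.25%.

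Transcript levels differed widely between developing vessels and meristem. Of 45391 transcripts tested, 10111 were higher in vessels (22.3%) and 8324 were higher in meristem (18.3%), together 40.6% (limma on log2(value + 1) with the experiment as a block, Benjamini-Hochberg adjusted p under 0.05). The log2 difference is given throughout as vessels minus meristem, so that positive values stand for higher levels in vessels. In bulk samples of this kind, fewer cells of a type and less RNA per cell cannot be told apart. The median difference was 1.07 among the transcripts called higher in vessels and -0.85 among those called higher in meristem, beside -0.01 over all transcripts tested.

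Large differences were more often toward vessels. At a log2 difference of at least 1 there were 5517 transcripts higher in vessels (12.2%) and 3102 higher in meristem (6.83%). At 2 or more the counts were 1792 (3.95%) and 598 (1.32%), and at 4 or more they were 180 (0.397%) and 60 (0.132%). At 6 or more the order was the other way round, with 10 transcripts higher in vessels (0.022%) and 15 higher in meristem (0.033%). Without the meristem library of experiment 3, which held the vessel transcripts at raised levels, the counts at 2 or more were 1986 and 674.

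The number of calls depended on which library was left out, over a wider range for meristem than for vessels. Transcripts called higher in meristem numbered 5034, 4510 and 4005 without the vessel libraries of experiments 1, 3 and 4, and 3693, 4370 and 8042 without the corresponding meristem libraries. For vessels the count was lowest, at 6732, without the vessel library of experiment 4. It was 7102 without the meristem library of experiment 3. Without all libraries of experiment 3 the counts were 3785 and 1374, and without those of experiment 1 the meristem count was 4282. The counts at a log2 difference of at least 2 moved less, between 1580 and 1991 for vessels and between 537 and 674 for meristem when 1 library was left out.

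All 3 vessel libraries lay above all 3 meristem libraries for 11870 transcripts (26.2%), and all 3 meristem libraries lay above all 3 vessel libraries for 11559 (25.5%). The groups were apart and the test was passed for 9171 transcripts higher in vessels (20.2%) and 7620 higher in meristem (16.8%). A median half-width of 0.45 for the 95% interval of the log2 difference gives the precision of a typical transcript. For 24328 transcripts (53.6%) the whole interval lay no further than 1 from 0 in either direction. Of these, 20836 were not called and 3492 were called with a small difference.

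**Figure D2:**
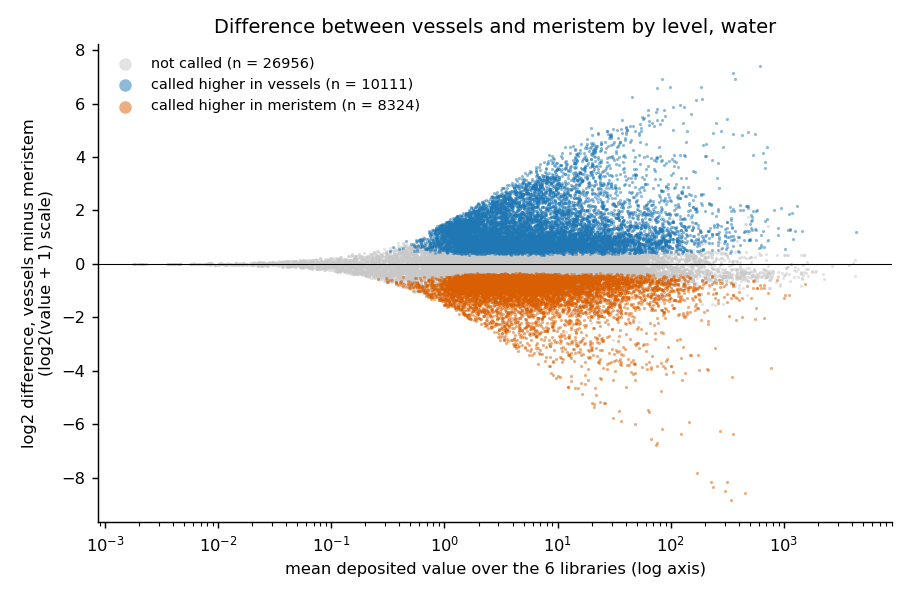
Log2 difference between vessels and meristem (vertical axis, log2(value + 1) scale) against the mean deposited value over the 6 libraries (log axis), 1 point per transcript tested. The 10111 transcripts called higher in vessels lie above 0 and the 8324 called higher in meristem below it; points in grey did not pass the test.

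Transcript pp_227588 had the largest difference toward vessels. Its value was 1066, 1239.9 and 1264 in the vessel libraries of experiments 1, 3 and 4. In the meristem libraries it was 0.544, 85.1 and 1.51. The vessel libraries were close together, whereas the meristem library of experiment 3 lay far above the other meristem libraries, and the groups did not overlap. The log2 difference was 7.42 (SE 1.06, limma adjusted p = 0.00102), and 8.94 without the meristem library of experiment 3. Its mean was 9.22 ± 9.46 (SD, n = 3) in root cap and 72.0 ± 6.29 in developing cortex, so cortex came next to vessels.

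The transcript pp_57705 followed the same course, with values of 420, 957 and 658 in vessels. It was listed at 0 in the meristem library of experiment 1, at 72.4 in experiment 3 and at 0.287 in experiment 4. On the log2 scale it differed by 7.14 (SE 0.96, limma adjusted p = 0.000776), and by 8.67 without the meristem library of experiment 3. The leading transcripts pp_234088, pp_128979 and pp_58112 shared this pattern. Their values in that library were 36.1, 55.3 and 23.7, against 0.0279 to 1.40 in the other meristem libraries. The log2 difference of pp_234088 was 6.63 (SE 0.90, limma adjusted p = 0.000821) and that of pp_128979 was 6.17 (SE 0.80, limma adjusted p = 0.000663), and without this library they were 8.05 and 7.50. As a share of the vessel value of the same experiment, the 5 transcripts stood at 6.87% to 13.9% in experiment 3.

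Transcripts pp_155609, pp_203568 and pp_100400 were low in all 3 meristem libraries. The vessel values of pp_155609 were 139, 149.6 and 216, and its meristem values were 0.293, 0.866 and 0.0459. In experiment 3 its meristem value was 0.579% of the vessel value, and for pp_203568 and pp_100400 this share was 1.28% and 0.747%. The mean of pp_155609 in vessels was 418 times that in meristem, and its log2 difference was 6.93 (SE 0.45, limma adjusted p = 5.05e-05). For pp_203568, at 132, 183 and 275 in vessels, the log2 difference was 6.61 (SE 0.53, limma adjusted p = 9.1e-05). For pp_100400, at 105, 162 and 179.5 in vessels, it was 6.57 (SE 0.48, limma adjusted p = 6.8e-05). All 3 were also low in root cap and cortex, where their means lay between 0.197 and 3.26.

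The groups did not overlap for any of these 8 leading vessel transcripts. The call of pp_58112 was the only one of the 8 that an alternative ended. It had values of 218, 169.9 and 586 in vessels and 0.0418, 23.7 and 1.40 in meristem, which gave 6.15 on the log2 scale (SE 1.15, limma adjusted p = 0.00363) and 7.70 without the meristem library of experiment 3. With edgeR's quasi-likelihood test, run on the recovered reads, its adjusted p was 0.130, the highest over its alternatives, where the lowest was 0.000484.

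Most transcripts with large differences toward vessels had vessels as the highest of the 4 tissues. Of the 1792 transcripts higher in vessels than in meristem by at least 2, 1644 (91.7%) had their highest mean in vessels, against 25.1% of all transcripts tested. In 1411 of them (78.7%) all 3 vessel libraries lay above all 9 other water libraries, against 9.90% of all tested. The median of their mean values was 17.3 in vessels, 1.61 in meristem, 0.804 in root cap and 1.78 in cortex. These transcripts took 8.29%, 11.9% and 11.8% of the signal of the vessel libraries of experiments 1, 3 and 4. In the meristem libraries they took 0.705%, 2.26% and 1.59%. The choice of the transcripts fixes the order of vessels and meristem, so these values describe the set.

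**Figure D3:**
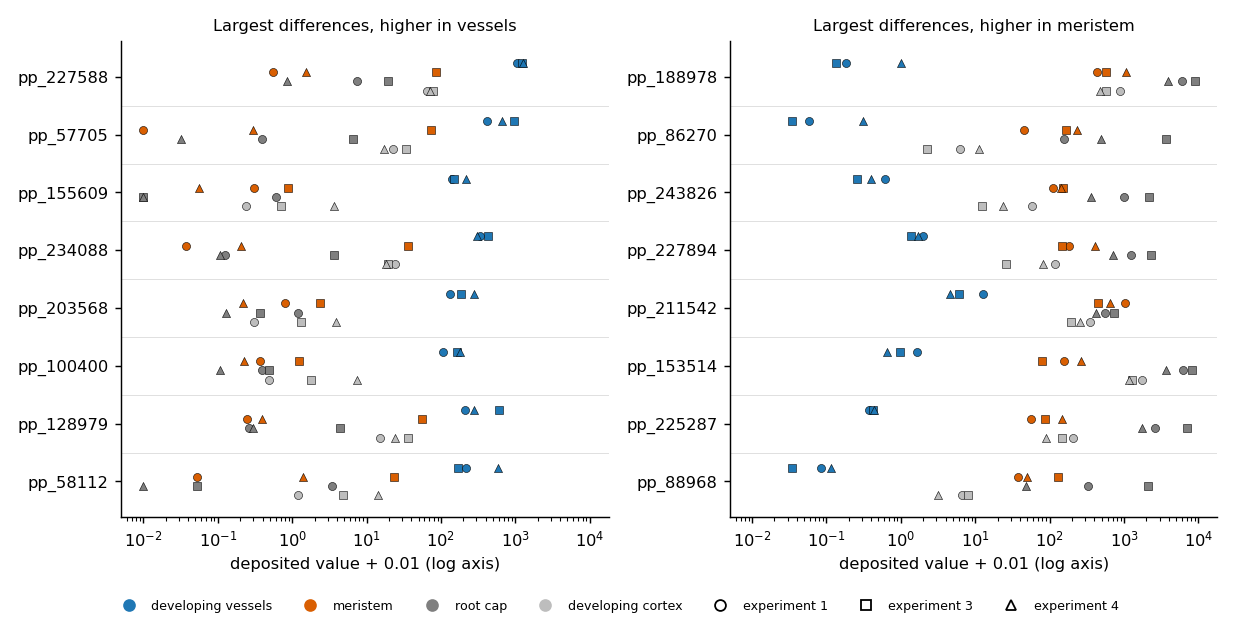
Deposited values (log axis, 0.01 added so that values of 0 can be drawn) of the 8 transcripts with the largest differences toward vessels (left) and toward meristem (right) in the 12 water libraries; colour gives the tissue and the symbol the experiment. On the left the squares of the meristem library of experiment 3 stand to the right of the other meristem symbols for all 8 transcripts, by the widest margin for 5. On the right the root cap symbols reach beyond those of meristem for most transcripts.

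The 4 transcripts named for the highest vessel means each differed by less than the 8 leading transcripts. Transcript pp_66210 held the highest value of each vessel library, with 5338, 5334 and 7615, and stood at 2172, 2594 and 3109 in meristem. Its groups did not overlap, and the log2 difference was 1.21 (SE 0.18, limma adjusted p = 0.00142). The call ended without the libraries of experiment 3 (adjusted p = 0.0507, the highest over its alternatives, whose lowest was 5.25e-08). Its mean in cortex, 7194 ± 595 (SD, n = 3), was above that in vessels, 6096 ± 1316, and these means were not tested against each other.

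Another abundant transcript, pp_216835, was highest in vessels among the 4 tissues. It stood at 1912, 1613 and 2032 in vessels and at 483, 529.5 and 482 in meristem. The 3 meristem libraries were almost level, and the log2 difference was 1.89 (SE 0.21, limma adjusted p = 0.000341). Its means in root cap and cortex, 392 ± 128 and 480.5 ± 154 (SD, n = 3), were close to that in meristem. For pp_212084 the values were 1263, 1561 and 1989 in vessels and 511, 720.02 and 782 in meristem (log2 difference 1.26, SE 0.15, limma adjusted p = 0.000503), with a cortex mean of 1548 ± 159 near the vessel mean of 1604 ± 365.

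The call of pp_66604 was the least stable among the abundant vessel transcripts. Vessel values were 1963, 1629.8 and 2511, and meristem values were 239.8, 315 and 1201, with experiment 4 the highest in both tissues. The log2 difference was 2.15 (SE 0.58, limma adjusted p = 0.0174). Adjusted p was 0.0545 without the replicate block and 0.0553 to 0.142 in 6 fits that left out a library or an experiment (0.000975 to 0.142 over all alternatives). Its cortex mean was 4864 ± 659 (SD, n = 3), above both tissues. The root cap library of experiment 4, at 2814, was likewise above the other root cap libraries, at 377 and 278.

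Chosen after their values were seen, pp_152135 and pp_78755 were abundant and differed by more. Transcript pp_152135 stood at 999.5, 1463 and 1448 in vessels and at 18.3, 229.96 and 54.0 in meristem, with the meristem library of experiment 3 the highest of its group. On the log2 scale it differed by 4.36 (SE 0.55, limma adjusted p = 0.000567), and 5.13 without that library. Transcript pp_78755 stood at 1483, 1133 and 1095 in vessels and at 101, 180.3 and 54.6 in meristem (log2 difference 3.601, SE 0.66, limma adjusted p = 0.00324, and 3.96 without the meristem library of experiment 3).

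Some transcripts present in vessels were at or near the detection floor in meristem. Of the 10111 transcripts called higher in vessels, 30 had at most 3 reads in each meristem library, and 3 of these had 0 reads in all 3. Among all 45391 transcripts tested, 373 had at most 3 reads in each meristem library, and 225 of those also had at most 3 in each vessel library. Such low counts were thus not more frequent among the calls. None of the 30 reached a mean value of 10 in vessels. Transcript pp_214375 had 907, 374 and 1025 reads in the vessel libraries of experiments 1, 3 and 4, and 0, 2 and 2 reads in the meristem libraries. Transcript pp_163728 had 660.0, 433 and 959 reads in vessels and 0, 2 and 0 in meristem, and pp_202615 had 224, 466 and 1438 against 0, 2 and 0. All 3 passed the test (limma adjusted p = 0.000132, 6.2e-05 and 0.000603), and their largest means in another tissue were 0.355, 0.208 and 0.320. The size of a log2 difference depends on the pseudocount for transcripts this close to 0, so it is not given.

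Transcript pp_188978 had the largest difference of all and was higher in meristem. It stood at 0.171, 0.123 and 0.998 in vessels and at 429, 564 and 1068 in meristem, so that the groups lay far apart in each experiment. The log2 difference was -8.85 (SE 0.44, limma adjusted p = 3.07e-05). In root cap its values were 5957, 9057 and 3848, several times those in meristem, and in cortex they were 873, 572 and 481. The share of the meristem value that root cap cells could account for was not tested.

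Of the 8 leading transcripts toward meristem, 7 had a higher mean in root cap than in meristem. Transcript pp_153514 stood at 1.66, 0.961 and 0.648 in vessels and at 158, 78.3 and 263 in meristem (log2 difference -6.19, SE 0.43, limma adjusted p = 6.01e-05), with a root cap mean of 6002 ± 2226 (SD, n = 3) and a cortex mean of 1404 ± 323. For pp_225287 the means were 0.400 ± 0.0312 in vessels, 96.2 ± 46.0 in meristem and 3765 ± 2805 in root cap (log2 difference -6.01, limma adjusted p = 0.000109). The transcripts pp_86270, pp_243826, pp_227894 and pp_88968 had log2 differences from -6.76 to -5.89, meristem means of 72.0 to 245 and vessel means of 0.0672 to 1.68. Root cap means were 1163 ± 908 (SD, n = 3) for pp_243826 and 1401 ± 794 for pp_227894. For pp_86270 and pp_88968 they rested on experiment 3, with root cap values of 154, 3649.8 and 486 and of 328, 2075 and 48.0 in experiments 1, 3 and 4, and in experiment 4 the value of pp_88968 was below that of meristem, 50.02.

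Transcript pp_211542 was the leading meristem transcript whose mean in meristem was the highest of the 4 tissues. Its values were 12.7, 6.04 and 4.51 in vessels and 1031, 442 and 639 in meristem. The log2 difference was -6.36 (SE 0.30, limma adjusted p = 3.07e-05), and it lay between -6.61 and -5.89 in the alternatives. The root cap libraries, at 557, 729 and 424, overlapped with those of meristem, and the cortex mean was 265 ± 77.2 (SD, n = 3). Vessels were thus the tissue at the lowest level.

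In most transcripts with large differences toward meristem, vessels were the lowest of the 4 tissues. Of the 598 transcripts higher in meristem by at least 2, 224 (37.5%) had their highest mean in meristem, 189 in root cap and 185 in cortex, and over all transcripts tested the share with the highest mean in meristem was 33.9%. In 468 (78.3%) the lowest mean was that of vessels, against 21.1% of all tested. All 3 vessel libraries lay below all 9 other water libraries in 384 of them (64.2%), against 5.28% of all tested and 18.4% of the 8324 transcripts called higher in meristem. The median of their mean values was 1.41 in vessels, 19.4 in meristem, 34.1 in root cap and 16.2 in cortex. The set took 3.66%, 3.05% and 5.11% of the signal of the meristem libraries of experiments 1, 3 and 4, and 12.3%, 16.9% and 10.6% of the root cap libraries. In the vessel libraries it took 0.455%, 0.331% and 0.254%. As above, these values describe a set chosen by the contrast.

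**Figure D4:**
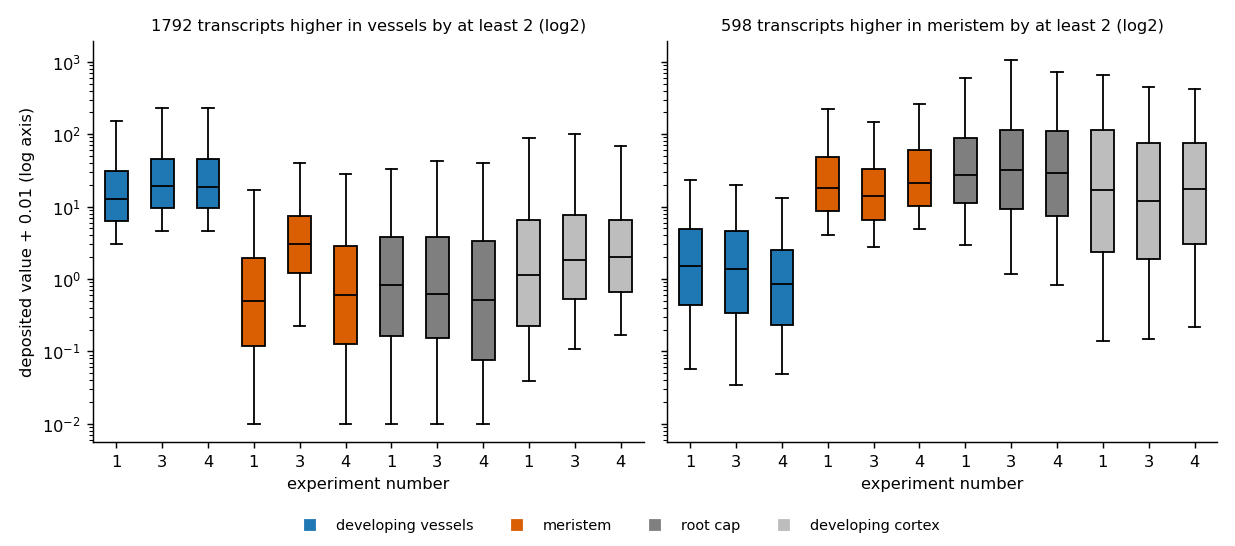
Deposited values (log axis, 0.01 added) of the 1792 transcripts higher in vessels by at least 2 on the log2 scale (left) and the 598 higher in meristem by at least 2 (right) in each of the 12 water libraries, labelled by experiment; boxes run from the lower to the upper quartile with the median as a line, and whiskers run from the 5th to the 95th percentile. On the left the vessel medians stand above those of the other libraries, which run from 0.488 to 3.05. Some boxes overlap, as with a lower quartile of 6.27 in vessels and an upper quartile of 7.73 in cortex. On the right the vessel medians stand below those of the other 3 tissues, again with some overlap of boxes.

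Transcripts with the meristem highest among the 4 tissues mostly differed from vessels by little, as did the called meristem transcripts as a whole. Among the 8324 transcripts called higher in meristem, all 3 meristem libraries lay above all 9 other water libraries in 4221 (50.7%), against 12.7% of all transcripts tested. Their median log2 difference was -0.80, near the -0.85 of all 8324. Among the 598 with a difference of at least 2, all meristem libraries lay above the 9 others in 116 (19.4%), which is nearer to the 12.7% of all tested. For comparison, all vessel libraries lay above the 9 others in 4040 of the 10111 transcripts called higher in vessels (40.0%), against 9.90% of all tested. Their median log2 difference was 1.57, beside 1.07 for all 10111. The calls fix the order of vessels and meristem, so part of each excess over all transcripts tested is built in. Within these sets, the share for meristem was lower at large differences and that for vessels was higher. These shares describe sets chosen by the contrast and were not tested.

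From those 116 transcripts, 4 were chosen after their values were seen. Transcript pp_57747 stood at 0.220, 0.123 and 0.635 in vessels and at 82.5, 36.7 and 33.9 in meristem, with means of 14.0 ± 14.6 (SD, n = 3) in root cap and 0.113 ± 0.0267 in cortex (log2 difference -5.19, SE 0.74, limma adjusted p = 0.00103). Transcript pp_177803 stood at 0.293, 0.0862 and 0.104 in vessels and at 32.2, 30.7 and 22.5 in meristem (log2 difference -4.65, SE 0.21, limma adjusted p = 3.07e-05). The meristem libraries agreed closely for this transcript, and its root cap mean was 6.68 ± 1.71. For pp_246291 and pp_128013 the log2 differences were -3.96 (SE 0.49) and -3.75 (SE 0.36), with root cap means of 153 ± 51.8 and 30.2 ± 14.8 against meristem means of 394 ± 235 and 52.1 ± 12.98.

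Transcript pp_246294 was the abundant transcript with the largest difference toward meristem among those named. It stood at 188, 27.2 and 122 in vessels and at 2238, 1068 and 926 in meristem. The lowest meristem value was several times the highest vessel value, and the log2 difference was -3.91 (SE 0.50, limma adjusted p = 0.000617). Root cap, at 892, 425 and 528, lay between meristem and vessels, and the cortex mean of 82.5 ± 57.7 (SD, n = 3) was near that of vessels. Its identifier number is 3 above that of pp_246291, which had a similar log2 difference.

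Other abundant transcripts toward meristem differed by less. For pp_96026 the values were 629, 640.01 and 784 in vessels and 1505, 1425 and 1699.8 in meristem (log2 difference -1.18, SE 0.15, limma adjusted p = 0.000569). Root cap and cortex means of 1501 ± 175 and 1534 ± 328 (SD, n = 3) were level with the meristem mean of 1543 ± 142, so vessels stood below the other 3 tissues. For pp_203877 and pp_205672 the log2 differences were -0.76 (SE 0.25, limma adjusted p = 0.0371) and -1.27 (SE 0.41, limma adjusted p = 0.0349). For pp_205672 the vessel libraries, at 513 to 672, lay well below the meristem libraries, at 1225 to 1609, while for pp_203877 the highest vessel value, 1383, was just below the lowest meristem value, 1397. Both calls ended in fits without 1 library or experiment, with adjusted p within 0.00119 to 0.258 for pp_203877 and 0.000593 to 0.225 for pp_205672 over their alternatives, and that of pp_203877 also ended without the replicate block (adjusted p = 0.107).

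Detection in meristem with near absence in vessels was found for 44 of the 8324 called transcripts, which had at most 3 reads in each vessel library. Among all 45391 transcripts tested, 495 had at most 3 reads in each vessel library. In 13 of the 44 there were 0 reads in all vessel libraries, and in 1, pp_166873, the meristem mean reached 10. This transcript had 920.0, 1181 and 2323 reads in the meristem libraries and 0, 2 and 2 in the vessel libraries (limma adjusted p = 0.000128), with a root cap mean of 40.2 ± 14.0 (SD, n = 3) against a meristem mean of 17.4 ± 7.99. Transcript pp_167281 had 386, 796 and 610.0 reads in meristem and 0, 0 and 1 in vessels, and its mean was 72.3 ± 57.3 in root cap. Transcript pp_68316 had 459, 609 and 1083 reads in meristem and 3, 3 and 2 in vessels, and was near the floor in cortex as well, at 0.0700 ± 0.0130.

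The most abundant transcript of each meristem library was not called. This was pp_124914, named after its values were seen, at 5835, 4526 and 4291 in meristem and 3833, 2865 and 3909 in vessels. Meristem was higher in each experiment, but the log2 difference of -0.47 (SE 0.24) did not pass the test (limma adjusted p = 0.150, and 0.0102 to 0.543 over the alternatives). It passed with quantile normalization, with library weights and without the meristem library of experiment 4. The 95% interval ran from -1.01 to 0.08.

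Several of the transcripts with the highest values stood at like levels in both tissues. Transcript pp_235812 had 5170, 3295 and 3975 in vessels and 5124, 3731 and 3331 in meristem, a log2 difference of 0.03 with a 95% interval of -0.38 to 0.44. The experiments differed from each other more than the tissues did, with experiment 1 the highest in both. For pp_94288 the interval was -0.24 to 0.56, for pp_109023 -0.54 to 0.42 and for pp_145646 -0.49 to 0.34. These 4 transcripts were chosen for intervals no further than 1 from 0 and have means of 2564 to 4439 in vessels.

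Calls were most frequent among transcripts of middle level. In the range of mean values from 10 to 100, 48.5% were called, against 12.1% below 1 and 22.2% at 1000 or more. Of the 63 transcripts at 1000 or more, 11 were higher in vessels and 3 higher in meristem. The number of transcripts with a value of at least 1 was 38652, 39199 and 39138 in the vessel libraries and 36564, 38272 and 38422 in the meristem libraries. Each vessel library exceeded each meristem library, and the exact permutation test (2-sided) gave p = 0.1, the smallest that 3 against 3 libraries can give. This test and the next did not use the pairing by experiment. The 100 most abundant transcripts held 15.5% ± 1.02 (SD, n = 3) of the signal in vessels and 16.4% ± 1.24 in meristem (exact permutation p = 0.6, 2-sided).

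Some wide differences in means did not pass the test. Transcript pp_74859 stood at 0.244, 0.148 and 0.194 in vessels and at 1.23, 86.5 and 2.73 in meristem, so the meristem mean rested on experiment 3. In experiments 1, 3 and 4 the log2 difference was -0.84, -6.25 and -1.64. Without all libraries of experiment 3 it was -1.24, and the test was passed (limma adjusted p = 0.0479). Without that meristem library alone, in a fit that kept the other libraries of experiment 3, it was -2.50 (limma adjusted p = 0.294). With all libraries it was -2.91 (SE 1.40, limma adjusted p = 0.124, and 0.0177 to 0.499 over the alternatives), and its root cap mean was 480 ± 826 (SD, n = 3). Transcript pp_129475 was higher in all 3 meristem libraries, at 15.5, 6.72 and 15.8 against 0.207, 0.801 and 0.117, and missed the threshold narrowly (log2 difference -3.26, SE 1.17, limma adjusted p = 0.0506, and 0.00357 to 0.203 over the alternatives). Its root cap values, which enter the estimate of the spread, were 0, 31.3 and 68.4. With the replicate block in the 6 vessel and meristem libraries alone it passed (limma adjusted p = 0.00661). Transcript pp_105320, at 27.2, 59.6 and 76.1 in meristem against 3.64, 14.7 and 3.67 in vessels, had an adjusted p of 0.0635 (log2 difference -2.87, SE 1.10, limma), and 0.00716 to 0.260 over the alternatives. It also passed with the block in the 6 libraries alone (limma adjusted p = 0.00956).

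The 3 experiments gave like differences for most called transcripts. The sign was the same in all 3 experiments for 10096 of the 10111 transcripts called higher in vessels (99.9%) and for 8300 of the 8324 called higher in meristem (99.7%), against 74.7% of all transcripts tested. The test uses the same differences, so these shares describe the calls. The 1792 transcripts higher in vessels by at least 2 had median log2 differences of 2.72, 2.26 and 3.07 in experiments 1, 3 and 4, and the 598 higher in meristem had -2.60, -2.35 and -3.30. Experiment 3 gave the smallest and experiment 4 the widest differences in both directions. Across the transcripts tested, which are not independent of each other, the differences of 2 experiments correlated with r = 0.895 (1 and 3), 0.824 (1 and 4) and 0.794 (3 and 4).

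**Figure D5:**
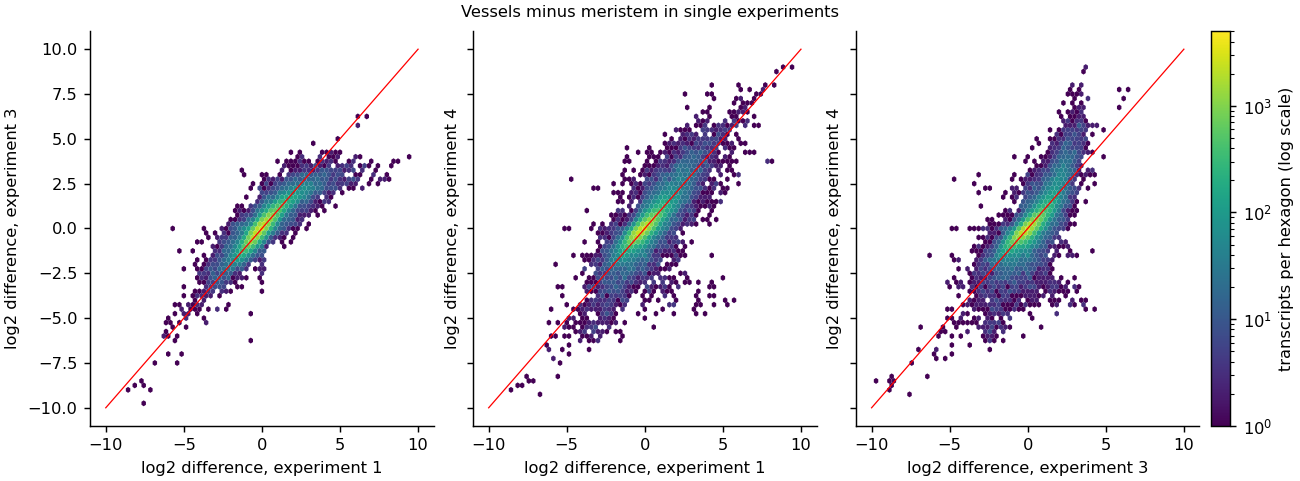
Log2 difference between vessels and meristem in 1 experiment against that in another, for the 45391 transcripts tested, as counts per hexagon (colour, log scale); the red line marks equal differences. Differences toward vessels flatten in experiment 3 relative to experiments 1 and 4, and a group of transcripts lies toward vessels in experiments 1 and 3 and toward meristem in experiment 4.

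Experiment 4 went against the other experiments in small groups of transcripts, most of them high in cortex. In 29 transcripts vessels were higher by at least 2 in experiment 1 and meristem was higher by at least 2 in experiment 4, and in 27 the same held for experiments 3 and 4, with 15 transcripts in both groups. Of the 41 in either group, 40 had their highest mean in cortex. In the group of 29, median values were 22.1, 11.4 and 1.02 in the vessel libraries of experiments 1, 3 and 4 and 0.460, 0.888 and 24.9 in the meristem libraries. Median values were 1.56, 1.67 and 10.3 in the root cap libraries, where experiment 4 was also the highest. In the cortex libraries they were 128, 178 and 95.3. Over all transcripts, the meristem library of experiment 4 correlated at r = 0.920 with the cortex library of its experiment, close to its r of 0.931 and 0.936 with the other meristem libraries. With the root cap library of experiment 4 its r was 0.882. The cortex library of experiment 4 also correlated at 0.814 and 0.831 with the meristem libraries of experiments 1 and 3. For the other cortex libraries these values were 0.708 to 0.749. The opposite split, with vessels higher in experiment 4 and meristem higher by at least 2 in experiment 1 or 3, was found in 4 and 5 transcripts, and 0 of these had their highest mean in cortex. None of the 41 was called, nor were these. The transcripts were picked by these differences, and what the cortex level adds to the vessel or meristem values was not tested.

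Transcript pp_245636 had the widest split of that kind (chosen after its values were seen). It stood at 62.4, 12.2 and 2.44 in the vessel libraries and at 0.209, 0.152 and 56.1 in the meristem libraries. Root cap values were 0.115, 0.0719 and 11.4, and the cortex mean was 496 ± 125 (SD, n = 3). The log2 difference was 5.71, 3.52 and -4.05 in experiments 1, 3 and 4. Over the 3 experiments it was 1.73 (SE 1.497, limma adjusted p = 0.381, and 0.00457 to 0.932 over the alternatives). Transcript pp_137315 split in the same way, from 5.24 in experiment 1 to -4.18 in experiment 4, and also had its highest mean in cortex, at 366 ± 111.

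Vessel libraries and meristem libraries were each more alike among themselves than with each other. Vessel libraries correlated with each other at r = 0.954 to 0.963 and meristem libraries at 0.931 to 0.941 across transcripts, whereas vessel and meristem libraries correlated at 0.748 to 0.882. The highest of the latter was between the vessel library of experiment 1 and the meristem library of experiment 3. A closer match to another tissue was that of the meristem and cortex libraries of experiment 4, at r = 0.920. The root mean square SD between libraries was 0.37 on the log2 scale in vessels and 0.45 in meristem.

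Called transcripts were also grouped into runs of consecutive identifiers, where a transcript without a called neighbour is a run of 1. Whether neighbours belong to 1 gene is not given in the sources at hand. With 40.6% of all transcripts tested called, some runs arise from that share alone. Runs over all transcripts tested were not counted, so the numbers below only describe the calls. The 10111 transcripts higher in vessels formed 4902 runs and the 8324 higher in meristem 4473, and at a log2 difference of at least 2 there were 1028 and 324 runs. The longest run toward vessels went from pp_211612 to pp_211630, 19 transcripts with log2 differences from 0.90 to 2.73. The longest toward meristem went from pp_134815 to pp_134830, 16 transcripts with log2 differences from -3.97 to -0.86. Among large differences, pp_145483 to pp_145495 formed a run of 13 toward vessels, with log2 differences of 2.33 to 3.78, vessel means of 5.45 to 26.4 and meristem means of 0.188 to 3.28. A run of 9 toward meristem, pp_134880 to pp_134888, had log2 differences from -4.05 to -3.49, meristem means of 36.4 to 197 and vessel means of 2.37 to 11.95.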

How the data were processed

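The authors deposited 1 table of signal values per transcript for 24 libraries. Judged from the numbers, each is a read count over a scaled library size, because 100% of them came out as whole reads in each library (tolerance 0.01) and column sums differed. BWA and bcl2fastq are named, without versions, per the submitters' processing notes. Reference transcripts, counting and scaling were not given in the sources at hand. The planned design had expected CPM, and the same test on the log scale was used. Values were analysed as log2(value + 1), which understates changes of low transcripts. A transcript was kept where 3 or more of the 12 water libraries reached a value of 1 (45391 kept, 1727 removed). limma 3.58.1 (R 4.3.3, empirical Bayes with trend) fitted tissue and experiment over these 12 libraries, so root cap and cortex added to the estimate of the spread (6 residual and 3.14 prior degrees of freedom), and no ammonium library entered. The experiment number in the titles pairs the libraries: deviations from the tissue means correlated at 0.65, 0.50 and 0.26 between same-numbered vessel and meristem libraries. Alternatives included edgeR 4.0.16 and DESeq2 1.42.0 on recovered reads. The procedure was tested on simulated data. Plots used matplotlib 3.10.9.

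Named transcripts followed a rule: among called transcripts whose groups did not overlap, in each direction, the 8 largest log2 differences, the 4 highest means, and the 3 highest means with at most 3 reads in each library of the other tissue; the 4 highest means among intervals no further than 1 from 0; and the 3 largest differences not called with a mean of at least 10. Only the first of a run of consecutive identifiers was named. Transcripts said to be chosen after their values were seen fall outside the rule. The comparison, the lists and the tests were chosen with earlier results of these data known. Planned marker lists could not be used, since no identifier carries a gene name.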

Additional observations from a re-analysis of the deposited data

How the results depend on the processing

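The 30 transcripts named by the rule and called kept their direction in all 628 fits of an alternative that gave them a value, and their call in 603 of these. Without the replicate block, 8815 transcripts were called higher in vessels and 6953 higher in meristem, and with the block in the 6 libraries alone 11709 and 10908. Counts at a log2 difference of at least 2 followed the scale: 3377 and 1497 with pseudocount 0.1, 677 and 243 with pseudocount 4, 3359 and 1835 by edgeR's quasi-likelihood test and 3657 and 2094 by DESeq2, whose calls of any size were 9596 and 7712, and 10952 and 10283. A minimum value of 5 left fewer transcripts and gave 6450 and 4991 calls. Library weights gave 13562 and 13393, and the cause of this was not tested. Quantile normalization turned the order of the calls, with 9117 higher in vessels and 10599 higher in meristem. At a log2 difference of at least 2 it gave 1641 and 678. With 1 library left out, calls ranged from 6732 to 9342 for vessels and from 3693 to 8042 for meristem, and large differences from 1580 to 1991 and from 537 to 674. Without experiment 1 the meristem count was 4282, and without experiment 3 the counts were 3785 and 1374; fewer samples entered these fits. The difference in the number of detected transcripts lay between 649 and 1578 and that in the share of the 100 most abundant transcripts between -1.28 and -0.19 percentage points with 1 library left out. Signs reversed only in transcripts that were not called. With quantile normalization pp_94288 was at -0.00 and pp_145646 at 0.06, with library weights pp_235812 at -0.01, without experiment 4 pp_94288 at -0.00 and pp_235812 at -0.08, and without experiment 1 pp_245636 at -0.27 and pp_137315 at -0.79. With 1 library left out the log2 difference ranged from -0.02 to 0.27 for pp_94288, from -0.09 to 0.16 for pp_235812, from -0.14 to 0.05 for pp_109023, from -0.16 to 0.07 for pp_145646 and from -0.28 to 3.13 for pp_137315. The median half-width of the 95% interval was 0.61 below a mean value of 1, 0.43 from 1 to 10, and 0.45 to 0.49 above; how depth bears on it was not tested.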
